A study of Mus musculus with 2 samples.

Results

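The Ifi200 genes, also called the PYHIN family, are a block of interferon-inducible genes on mouse chromosome 1. The genes described here were the 7 rows of the deposited count table with the symbols Ifi202b, Ifi203, Ifi204, Ifi205, Ifi207, Ifi208 and Mndal, out of 17260 genes in all. The family was picked with the difference between the 2 libraries in view, so the ratios of its members are a description and carry no test. Messenger RNA was sequenced from 1 library of mouse embryonic fibroblasts (MEFs) labelled Ahi1-/- and from 1 wild-type (WT) library. MEFs are connective tissue cells grown from embryos, here from embryonic day 13.5, and were kept in DMEM with 10% serum. Both libraries were labelled C57BL/6. The labels do not state the substrain, the part of Ahi1 that was targeted, or the number of embryos behind each culture. The deposited columns are headed EXP and CON, read here as Ahi1-/- and WT, and every direction depends on that reading.

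Most proteins of this family join a HIN domain, which binds DNA, to a pyrin domain, through which proteins assemble with one another. Interferon induces many of them, and they are known as sensors of DNA in the cytosol and as regulators of transcription and cell growth in the nucleus. The genes arose by local duplication, and their number and activity differ between mouse strains. Ifi202b is a known case: strains such as NZB express it strongly, while C57BL/6J mice are described as carrying a small deletion at its start and making little of it.

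The library labelled Ahi1-/- held 20820678 counts and the WT library 19067462, after the deposited expected counts were rounded. Ahi1 itself had 370 counts in the library labelled Ahi1-/- and 410 in WT (log2 ratio -0.16, 95% counting interval -0.37 to 0.05). The targeted gene therefore did not check the labels, and the first library is named by its label throughout. With 1 library per genotype the differences have no replicate check, and they compare these libraries, not the genotypes. Every interval covers counting error only. It does not cover the sharing of reads between similar genes or differences between cultures.

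The promoters of the family show a common sequence. RefSeq promoter windows of build GRCm38.p6, from 250 bases before to 50 bases after a gene's start, were found for 6 of the 7 members and for all 5 of the other Ifi200 genes in the table. GAAANNGAAA is the core of the element through which interferon-activated factors bind DNA. It was searched on both strands and was in a window of 5 of the 6 members (Ifi203, Ifi205, Ifi207, Ifi208 and Mndal) and of 3 of the 5 others (Ifi206, Ifi211 and Ifi213). Counted in the same way, 3.99% of all 27025 genes with windows of this length held it. The spelling GAAATCGAAA, one case of that core that was picked after the sequences were seen, was in windows of 16 genes, and 7 of these were Ifi200 genes (Ifi203, Ifi206, Ifi207, Ifi208, Ifi213, Ifi214 and Mndal). Ifi205 and Ifi211 had GAAATTGAAA, which 0.137% of all genes held. The stretches around the match on the gene's strand are shown because they let the copies be compared. They read 5′ to 3′ in GRCm38.p6 with the match in capitals.
Ifi203 (chr1:173942506-173942539, minus strand): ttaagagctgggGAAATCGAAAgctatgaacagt
Mndal (chr1:173880202-173880235, minus strand): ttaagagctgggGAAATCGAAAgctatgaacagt
Ifi207 (chr1:173741829-173741862, minus strand): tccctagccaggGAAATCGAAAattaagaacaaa
Ifi208 (chr1:173673595-173673628, plus strand): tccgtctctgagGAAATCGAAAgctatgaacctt
Ifi213 (chr1:173599324-173599357, minus strand): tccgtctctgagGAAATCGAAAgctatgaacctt
Ifi206 (chr1:173491337-173491370, minus strand): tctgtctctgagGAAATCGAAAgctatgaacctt
Ifi205 (chr1:174031868-174031901, minus strand): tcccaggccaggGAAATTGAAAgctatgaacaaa
Ifi211 (chr1:173913062-173913095, minus strand): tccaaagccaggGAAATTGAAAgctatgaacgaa
The stretches of Ifi203 and Mndal were identical over all 34 bases, and so were those of Ifi208 and Ifi213. Ifi205 and Ifi211 differed at 3 of the 34 bases. Ifi203 and Ifi205 differed at 10. The windows of Ifi202b, Aim2 and Ifi209 had no match on either strand, which says only that these letters are not in those windows. All windows are those of the reference build. The promoter sequence carried by the cells of either library, also at Ifi202b, was not examined. The whole windows of Mndal and Ifi202b are shown because these members had the highest and the lowest ratio in the comparison of libraries. The start used for Mndal is the upstream one of its RefSeq starts, and capitals mark the match.
Mndal (chr1:173880138-173880437, minus strand): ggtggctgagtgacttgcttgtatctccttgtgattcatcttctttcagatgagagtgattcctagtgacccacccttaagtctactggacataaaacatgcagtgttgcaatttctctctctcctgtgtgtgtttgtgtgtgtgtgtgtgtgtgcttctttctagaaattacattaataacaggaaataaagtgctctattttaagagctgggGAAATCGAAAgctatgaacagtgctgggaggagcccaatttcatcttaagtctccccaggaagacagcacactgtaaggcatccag
Ifi202b (chr1:173982795-173983094, minus strand): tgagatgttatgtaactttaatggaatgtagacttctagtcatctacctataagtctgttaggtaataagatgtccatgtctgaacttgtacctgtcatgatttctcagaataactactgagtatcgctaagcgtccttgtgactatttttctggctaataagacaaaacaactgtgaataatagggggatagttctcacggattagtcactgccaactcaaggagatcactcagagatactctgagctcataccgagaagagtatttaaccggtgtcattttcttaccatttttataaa

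Ifi202b encodes p202, a protein with HIN domains and no pyrin domain that binds DNA and holds back the AIM2 inflammasome. Ifi202b (Entrez gene 26388) had 0 counts in the library labelled Ahi1-/- and 937 counts in WT. Per length, these were 0 TPM in the library labelled Ahi1-/- and 57.3 TPM in WT. Its transcripts were thus seen in the WT library and not at this depth in the other. There the count of 0 was set to a floor of 3 counts, or 0.150 CPM. Set at that floor, Ifi202b was 315-fold lower (log2 ratio -8.30). This figure comes from the floor, and the counting interval allows a smaller difference, up to a log2 ratio of -8.00. In WT its TPM exceeded that of 82.3% of all genes. Of the 6969 genes that reached 500 counts in WT, 7 were at 0 in the other library. The other 6 of these are predicted genes, a pseudogene and an unnamed locus by their symbols, namely Gm52236, Gm52701, Gm52796, Gm7429, Rpl34-ps1 and LOC100044068. Both libraries carry the same strain label, and a difference in substrain or in DNA linked to a locus cannot be told apart from genotype with 1 library each. Nnt, another gene with a known deletion in C57BL/6J mice, had 1735 counts in the library labelled Ahi1-/- and 1573 in WT (log2 ratio 0.13, interval 0.03 to 0.23), and counts per gene cannot show missing exons.

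Ifi204 was the most abundant member in both libraries. It encodes p204, which senses DNA upstream of STING, binds the retinoblastoma protein and is often compared with human IFI16. Ifi204 (Entrez gene 15951) had 1806 counts in the library labelled Ahi1-/- and 4450 in WT. Its level was 87.3 TPM in the library labelled Ahi1-/- and 211 TPM in WT, above 88.4% and 96.0% of all genes in those libraries. In the library labelled Ahi1-/- the scaled count was 2.49-fold lower (log2 ratio -1.31, interval -1.39 to -1.23). The authors' deposited table of FPKM values gives it at 38.4 in the library labelled Ahi1-/- and 103.8 in WT. That table lists 22.4% of all genes, and 3 of the 7 members are in it (Ifi202b, Ifi204 and Ifi205), where the smallest ratio between values above 1 was 2-fold.

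Ifi205, a myeloid-enriched gene whose product is described to control transcription of the inflammasome adaptor gene Pycard in mouse macrophages, had 75 counts in the library labelled Ahi1-/- and 152 in WT. Its level was 5.27 TPM in the library labelled Ahi1-/- and 10.4 TPM in WT. The ratio lay close to 2-fold (2.04-fold lower, log2 ratio -1.03, interval -1.45 to -0.62). It was -0.98 with upper-quartile scaling and with the deposited TPM, so its place past 2-fold depended on the scaling.

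Ifi203, Ifi207, Ifi208 and Mndal lay within 2-fold of equal levels. Ifi203, which encodes an interferon-inducible nuclear protein, had 723 counts (15.1 TPM) in the library labelled Ahi1-/- and 927 counts (17.3 TPM) in WT. Its log2 ratio was -0.37 (interval -0.51 to -0.23). Mndal, named for its likeness to the human myeloid nuclear differentiation antigen, was the only member whose interval lay above 0. Mndal had 332 counts (16.8 TPM) in the library labelled Ahi1-/- and 224 counts (10.7 TPM) in WT, with a log2 ratio of 0.55 (interval 0.31 to 0.81). Ifi207, a less studied member with a HIN domain, had 257 counts (8.22 TPM) in the library labelled Ahi1-/- and 245 counts (7.63 TPM) in WT. Its log2 ratio of 0.06 (interval -0.20 to 0.31) was -0.06 when libraries were scaled by total counts. Ifi208, once named Pydc3 for its pyrin domain, was near the limit of detection with 11 counts in each library (0.33 TPM in the library labelled Ahi1-/- and 0.41 TPM in WT, log2 ratio -0.01, interval -1.36 to 1.33).

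Of the 7 members, 6 had at least 50 counts in the higher library, the minimum for a call, and Ifi208 did not. By that rule 3 were lower by 2-fold or more in the library labelled Ahi1-/- while 0 were higher. Over all 12075 genes that met this minimum, 10.3% were at least 2-fold lower and 16.0% at least 2-fold higher. The median log2 ratio of the 7 members was -0.37, where that of all genes with the minimum count was -0.04. In the distribution of those genes, 0.0580% had a lower ratio than Ifi202b, 6.20% lower than Ifi204, 9.78% lower than Ifi205 and 31.9% lower than Ifi203. Ifi207 and Mndal lay above 55.4% and 75.7% of them.

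**Figure D1:**
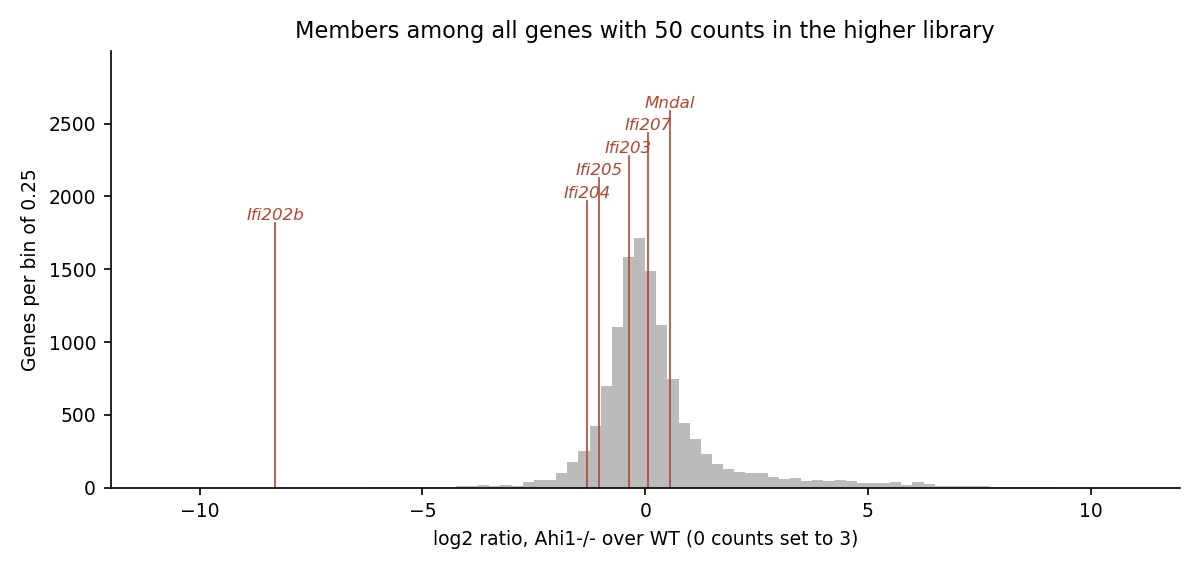
Histogram of the log2 ratio (library labelled Ahi1-/- over WT) of the 12075 genes that met the minimum count, in bins of 0.25, with a red line at each of the 6 members that met the minimum. Ifi202b, placed by its floor at -8.30, stands at the far left, while Ifi203, Ifi207 and Mndal stand in the body of the distribution.

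Ifi204 led the order of the members by level in both libraries, and Ifi202b came last in the library labelled Ahi1-/- but next after Ifi204 in WT. On the TPM scale the order in the library labelled Ahi1-/- was Ifi204, Mndal, Ifi203, Ifi207, Ifi205, Ifi208 and Ifi202b. In WT it was Ifi204, Ifi202b, Ifi203, Mndal, Ifi205, Ifi207 and Ifi208. Neighbours in these orders such as Mndal (16.8 TPM) and Ifi203 (15.1 TPM) in the library labelled Ahi1-/-, or Mndal (10.7 TPM) and Ifi205 (10.4 TPM) in WT, cannot be ordered without replicates.

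**Figure D2:**
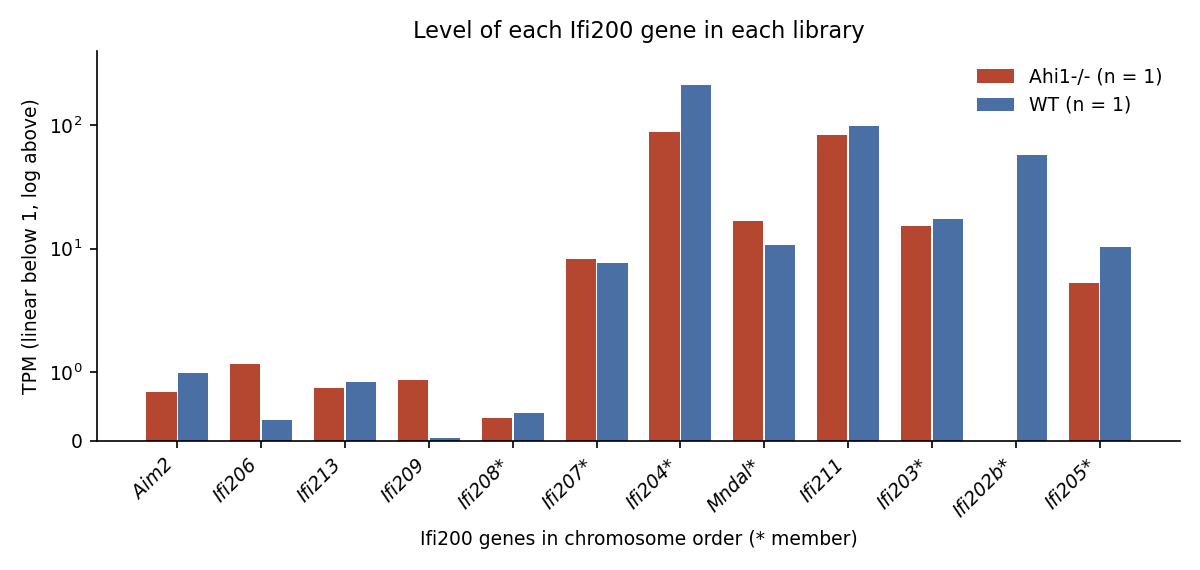
Bars give the deposited TPM of the 12 Ifi200 genes of the table in chromosome order, with the library labelled Ahi1-/- (red) to the left of WT (blue), 1 library each, on an axis that is linear below 1 and logarithmic above. Ifi204 and Ifi211 are highest in both libraries, and Ifi202b has no bar in the library labelled Ahi1-/- and stands at 57.3 TPM in WT.

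Summed over the 7 members, there were 3204 counts in the library labelled Ahi1-/- (exact Poisson interval 3094 to 3317) and 6946 in WT (6784 to 7111). In the library labelled Ahi1-/- the scaled sum was 2.19-fold lower (log2 ratio -1.13, interval -1.19 to -1.07), and Ifi202b and Ifi204 accounted for most of the gap. Without Ifi202b the log2 ratio of the sum was -0.92, without Ifi204 it was -0.85, and without both it was -0.17 (interval -0.28 to -0.07). The 5 members left then had 1398 counts in the library labelled Ahi1-/- and 1559 in WT.

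The make-up of the sum does not depend on library scaling. Ifi204 held 56.4% of the counts of the 7 members in the library labelled Ahi1-/- (exact binomial interval 54.6 to 58.1) and 64.1% in WT (62.9 to 65.2). Ifi202b held 0% in the library labelled Ahi1-/- (up to 0.115) and 13.5% in WT (12.7 to 14.3). The share of Ifi203 was 22.6% in the library labelled Ahi1-/- (21.1 to 24.1) and 13.3% in WT (12.6 to 14.2). Mndal had 10.4% in the library labelled Ahi1-/- (9.33 to 11.5) and 3.22% in WT (2.82 to 3.67), and Ifi207 had 8.02% and 3.53% in those libraries. The share of Ifi205 was 2.34% in the library labelled Ahi1-/- (1.85 to 2.93) and 2.19% in WT (1.86 to 2.56), and these intervals overlap. Shares of one total are tied to each other, so the larger shares of Ifi203 and Ifi207 go with the lower counts of Ifi202b and Ifi204. The larger share of Mndal goes with those lower counts and also with its own higher scaled count (log2 ratio 0.55).

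**Figure D3:**
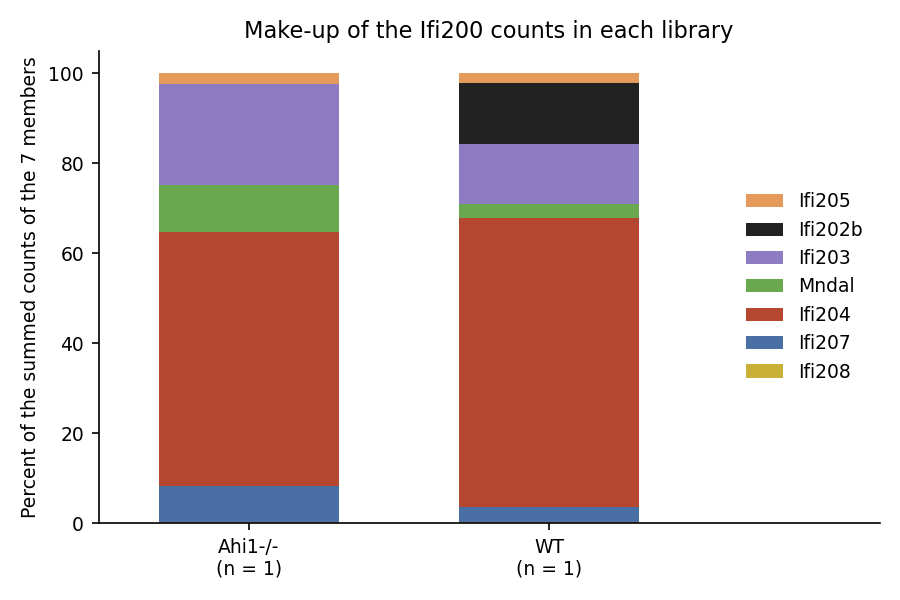
Stacked bars split the summed counts of the 7 members by gene in the library labelled Ahi1-/- (left) and in WT (right), in percent. Ifi202b (black) holds 13.5% in WT and is missing in the library labelled Ahi1-/-, where Ifi203 (purple) holds 22.6%.

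The transcripts of most members share sequence with other Ifi200 genes, and the deposited counts are estimates. All 7 members had counts with decimals in both libraries, except Ifi202b at 0 in the library labelled Ahi1-/-. What the decimals of any one gene come from was not tested. Among all genes, 64.4% of the values in the library labelled Ahi1-/- and 65.1% in WT had no decimals. Transcripts of GENCODE release M21 were cut into every word of 50 bases and compared among the 12 Ifi200 genes. The word length was chosen without knowledge of the read length, which the labels do not state. Ifi202b shared 0% of its 1648 words with the other 11 genes or with any other gene, although its WT count was deposited as 937.1 with a decimal. Ifi203 shared 3.87% and Ifi207 4.46% with other Ifi200 genes. The shares were 17.3% for Mndal, 18.6% for Ifi205, 19.1% for Ifi204 and 20.8% for Ifi208. Ifi211 shared most, with 72.8% of its words in other Ifi200 genes (44.7% in Ifi205, 30.1% in Ifi204 and 17.1% in Mndal). Genes outside these 12 held 9.16% of the words of Ifi203 and 3.92% of those of Ifi207. Counts of Ifi211, Ifi204, Ifi205, Ifi208 and Mndal are therefore uncertain as to how reads were divided. This holds less for Ifi203 and Ifi207, and least for Ifi202b against this annotation. The annotation behind the authors' counts may differ from it.

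**Figure D4:**
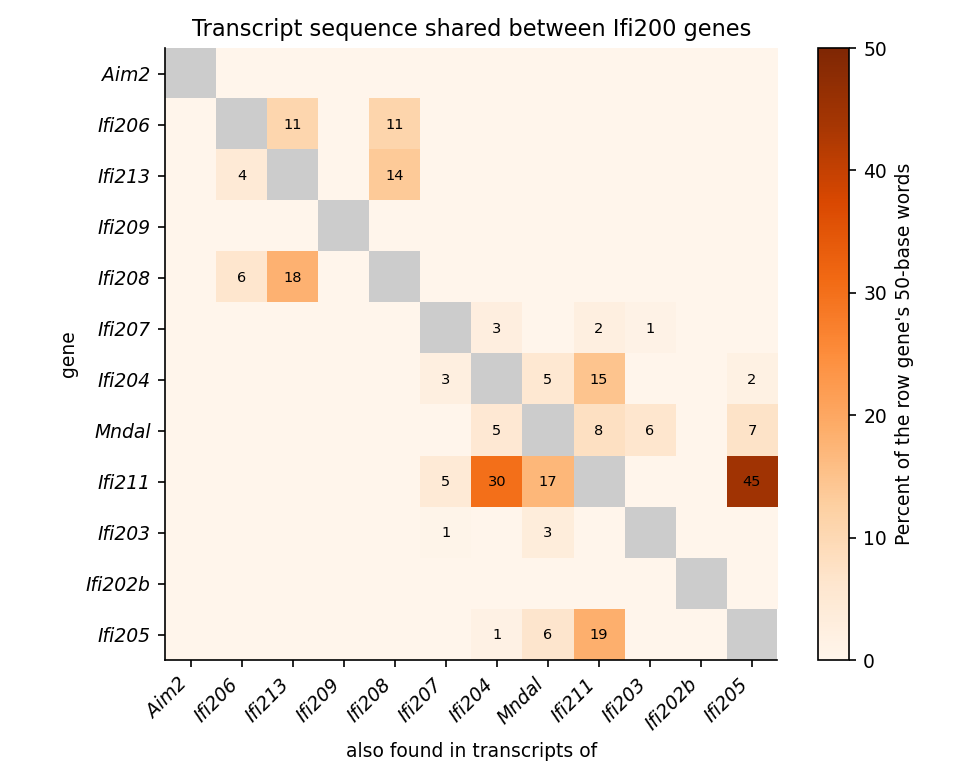
Each cell gives the percent of the 50-base words in the transcripts of the row gene that also occur in transcripts of the column gene, for the 12 Ifi200 genes in chromosome order. Ifi211 shares most (45% with Ifi205 and 30% with Ifi204), and the rows of Ifi202b, Aim2 and Ifi209 are empty.

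The length that the authors' quantification gave to Ifi203 also differed between the libraries. A count divided by its TPM is proportional to the mean effective transcript length used for the gene. For Ifi203 this ratio in the library labelled Ahi1-/- was 0.914 times that in WT, after scaling by the median over 8019 genes with at least 10 TPM in both libraries. Of those genes 1.27% lay lower, and the middle 90% ran between 0.970 and 1.02. The length ratio was 0.966 for Mndal, 1.01 for Ifi204 and 1.00 for both Ifi205 and Ifi207. In part through its length ratio, the TPM ratio of Ifi203 (log2 -0.20) was nearer to 0 than its count ratio (-0.37). TPM values are also scaled otherwise than the counts. With TPM, Ifi205 moved from -1.03 to -0.98 and Ifi207 from 0.06 to 0.11, although their length ratios were 1.00.

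The other Ifi200 genes of the table showed no common direction. Ifi211, the only one with at least 50 counts, had 1321 counts (82.8 TPM) in the library labelled Ahi1-/- and 1602 (98.0 TPM) in WT, with a log2 ratio of -0.29 (interval -0.40 to -0.19). Its log2 ratio differed from those of Ifi204 (-1.31) and Ifi205 (-1.03), the genes with which it shares most sequence. Ifi206 had 35 counts in the library labelled Ahi1-/- and 10 in WT (log2 ratio 1.79, interval 0.75 to 2.97). Ifi209 had 28 counts in the library labelled Ahi1-/- and 1 in WT (log2 ratio 4.79, interval 2.20 to 10.15). Aim2, the DNA sensor of the inflammasome, had 19 counts in the library labelled Ahi1-/- and 22 in WT, and Ifi213 had 20 and 22 in those libraries. The 5 genes together had 1423 counts in the library labelled Ahi1-/- and 1657 in WT (log2 ratio -0.23, interval -0.34 to -0.13). Ordered along chromosome 1 in assembly GRCm38.p6, Ifi202b and Ifi205 lie side by side, while Mndal, Ifi211 and Ifi203 lie between Ifi204 and Ifi202b. Grouped by promoter word, the members with GAAATCGAAA had log2 ratios of -0.37 (Ifi203), 0.06 (Ifi207), -0.01 (Ifi208) and 0.55 (Mndal). The others with that word were at 1.79 (Ifi206) and -0.15 (Ifi213). With GAAATTGAAA, the member Ifi205 was at -1.03 and Ifi211 at -0.29.

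**Figure D5:**
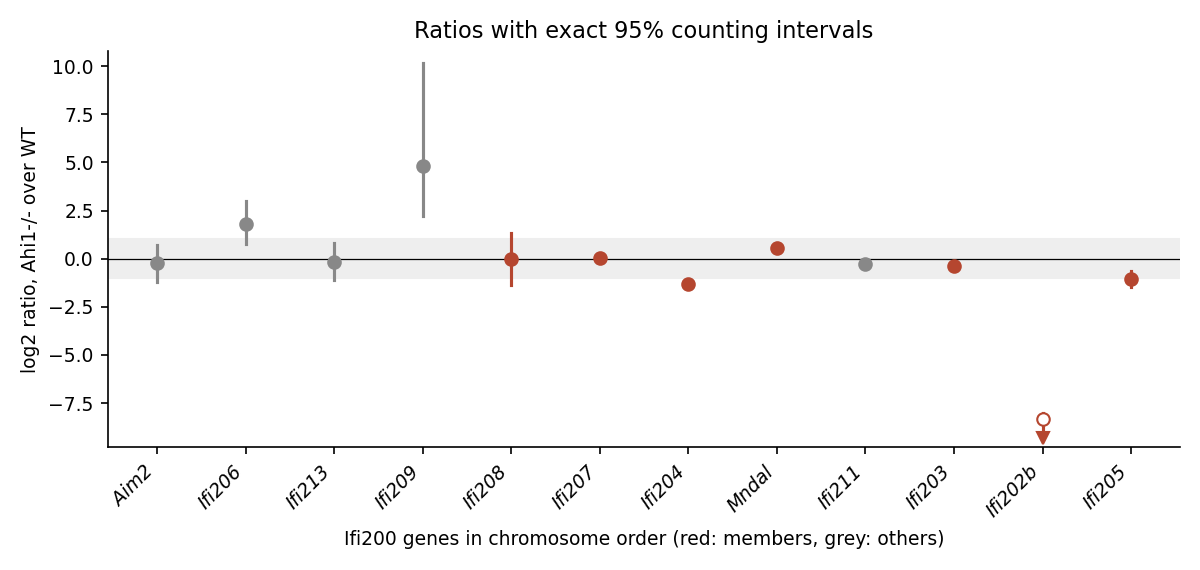
Points give the log2 ratio of counts (library labelled Ahi1-/- over WT) of the 12 Ifi200 genes in chromosome order with exact 95% counting intervals, members in red, other Ifi200 genes in grey, and the grey band spanning 2-fold either way. Ifi204, at -1.31, lies below the band and Ifi205 at its lower edge. Ifi202b is drawn at its floor value of -8.30 (open circle), with an arrow for an interval with no lower end.

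Among the genes that flank the block, Dusp23, a phosphatase gene, had 144 counts in the library labelled Ahi1-/- and 53 in WT (2.69-fold higher). Mptx1 had 57 counts in the library labelled Ahi1-/- and 5 in WT, Fmn2 had 103 and 4, and Cadm3 had 113 and 1, so these were also higher. Over all 686 genes of chromosome 1 with the minimum count, the median log2 ratio was 0.28.

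Genes of the interferon pathway that induces the family were counted in the same way, beside the 10.3% lower and 16.0% higher among all genes with the minimum count. Of 26 measured interferon-stimulated genes outside the family, all with the minimum count, 8 were lower by 2-fold or more in the library labelled Ahi1-/-, 1 was higher and the others lay within 2-fold. Their median log2 ratio was -0.73, where that of all genes was -0.04. The antiviral gene Rsad2 had 298 counts in the library labelled Ahi1-/- and 1568 in WT, the nucleotide kinase Cmpk2 182 and 1520, the RNA sensor gene Dhx58 321 and 908, and Oasl1 246 and 931. The higher one was Oas1a, a synthase of 2-5A, named after its values were seen (817 and 289 counts). Of 12 genes of type I interferon signalling, 2 were lower and 0 higher, a number near the share among all genes, with a median of -0.12. The lower ones were the transcription factors Irf1 (587 counts in the library labelled Ahi1-/- and 1417 in WT, log2 ratio -1.28) and Irf2 (544 and 1086, -1.01). Irf2 lay at the edge of 2-fold. Of 11 measured genes that sense DNA and lead to interferon, 2 were lower and 0 higher, with a median of -0.58. The sensor Cgas had 235 counts in the library labelled Ahi1-/- and 642 in WT (log2 ratio -1.46), and the DNA end-binding gene Xrcc6 had 546 and 1193 (-1.14). Sting1, the adaptor downstream of p204 and cGAS, went the other way with 1022 counts in the library labelled Ahi1-/- and 668 in WT (log2 ratio 0.60), and was also named after its values were seen.

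Several members are best known from myeloid cells, so markers of the cells a MEF culture can hold were counted. Their calls stand beside the 10.3% lower and 16.0% higher among all genes with the minimum count. Of 14 measured macrophage and myeloid markers, 5 met the minimum count for a call. The lysozyme gene Lyz2 was called higher, with 315 counts in the library labelled Ahi1-/- and 96 in WT. Cd14 (85 counts in the library labelled Ahi1-/- and 199 in WT) and Laptm5 (26 and 53) were called lower. None of the 16 on the list was at 0 in either library. Together they had 751 counts in the library labelled Ahi1-/- and 670 in WT, but 436 and 574 without Lyz2, so the direction of the sum rests on that gene. Below the minimum count, and named after their values were seen, the macrophage markers Adgre1 (39 counts in the library labelled Ahi1-/- and 4 in WT) and Itgam (39 and 12) had more counts in the library labelled Ahi1-/-, and the pan-leukocyte marker Ptprc (10 and 23) had fewer. Lymphoid markers summed to 11 counts in the library labelled Ahi1-/-, with 4 of 7 genes at 0, and to 112 in WT, with none at 0. Over all 17260 genes, 749 were at 0 in the library labelled Ahi1-/- and 1234 in WT. Cd79a held most of the lymphoid counts (8 in the library labelled Ahi1-/- and 66 in WT). Endothelial markers summed to 158 in the library labelled Ahi1-/- and 303 in WT, but Egfl7 held most of these (117 and 236). The other endothelial markers had at most 20 counts in either library and no common direction. Red cell genes summed to 111 in the library labelled Ahi1-/- and 8839 in WT. Of 12 fibroblast markers, 9 were higher by 2-fold or more in the library labelled Ahi1-/- while 1 was lower, with 981284 counts in that library and 285830 in WT. In bulk samples, fewer cells of a type and less RNA per cell cannot be told apart, and the part of cell make-up in the Ifi200 differences was not tested.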

How the data were processed

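Messenger RNA was measured in 1 library per genotype. The authors deposited expected counts and TPM values per gene for 17260 genes and, in a second table, FPKM values for 3872 genes, 3 of them members. Per the submitters' processing notes, HISAT2 2.0.4, Bowtie2 2.2.5, RSEM 1.2.12 and build mm8 were used, without stated roles. Neither the annotation nor any use of strand or filter is stated there. All 6 columns of values were used.

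Expected counts were rounded to whole numbers and scaled with TMM (edgeR 4.0.16, R 4.3.3). Ratios are the library labelled Ahi1-/- over WT, with exact 95% Clopper-Pearson intervals, and a gene at 0 took a floor of 3 counts. A call needed a 2-fold difference and 50 counts in the higher library, and a list member was measured with 10 counts over both libraries. No p-value was computed. The calculation was tested on simulated data. Python 3.11.15, pandas 2.3.3 and scipy 1.17.1 did the rest. RefSeq tables of GRCm38.p6 gave gene order and promoters, and GENCODE M21 gave transcripts. This is not the build of the notes. Only chromosome, gene order and promoter words from it are set beside the counts, and not coordinates.

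The members and lists were chosen with earlier results of these data known. Genes named are all members, the other Ifi200 genes, genes among the 5 nearest on each side of the block, and up to 4 genes per list with the largest ratios. Adgre1, Itgam, Ptprc, Oas1a, Sting1, Gsdmd and Pycard fall outside this rule, and their choice followed a look at their values. Some genes that this rule would name are not reported here. Alternatives covered scaling (DESeq2 1.42.0 size factors, total counts, upper quartile), TPM, FPKM, rounding, the floor, the minimum count and the fold.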

Additional observations from a re-analysis of the deposited data

How the results depend on the processing

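Of 121 alternative values, 95 stayed within the counting interval (or, for counts of genes, within 1.5 times) and 26 moved. None reversed a call. Scaling by total counts shifted every log2 ratio by -0.11, and by -0.10 without the genes over 1% of the counts. Ifi204 was then at -1.43 and -1.41, and the sum of the 7 members at -1.24 by total counts. Deposited FPKM, added after the data were seen, gave -1.44 for Ifi204. With the deposited TPM, Ifi203 was at -0.20 and the sum at -1.24. Left out after the data were seen, Ifi202b took the sum to -0.92, Ifi204 to -0.85 and both to -0.17.

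Members at least 2-fold lower numbered 3, but 2 with upper-quartile scaling, TPM or a minimum of 200 counts, and 1 (Ifi202b) at 4-fold. Members higher numbered 0 in every alternative run. Over all genes, the 1249 lower became 2606 at 1.5-fold, 299 at 4-fold and 2530 with no minimum. The 1934 higher became 1078 at 4-fold, 1266 with a minimum of 200 counts and 3443 with no minimum.

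Shares of counts weight genes by transcript length, while TPM divides by it. As shares of summed TPM in place of counts, the library labelled Ahi1-/- had Ifi204 at 65.6%, Mndal 12.6%, Ifi203 11.4%, Ifi207 6.18% and Ifi205 3.96%. WT had Ifi204 at 67.1%, Ifi202b 18.2%, Ifi203 5.50%, Mndal 3.39%, Ifi205 3.30% and Ifi207 2.42%. The cause of the other shifts was not tested. Depth limits Ifi208, with 11 counts in each library. No paired analysis was possible because each genotype had 1 library.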

Other observations

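Genes of the inflammasome, which AIM2 starts and p202 holds back, were few in counts. Of 9 measured genes, 3 had at least 50 counts. Of these, 1 was higher by 2-fold or more in the library labelled Ahi1-/- while 0 were lower. Among all genes with the minimum count, 16.0% were higher and 10.3% lower, and 3 genes are too few to set against those shares. The higher one was Casp4, the sensor protease of the noncanonical pathway, with 331 counts in the library labelled Ahi1-/- and 35 in WT (9.37-fold). The pore gene Gsdmd, named after its values were seen, had 522 counts in the library labelled Ahi1-/- and 371 in WT. Pycard, also named after its values were seen and the adaptor that the product of Ifi205 is described to regulate, had 14 counts in the library labelled Ahi1-/- and 6 in WT (log2 ratio 1.21, interval -0.26 to 2.88).

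Of 13 genes whose proteins are described to bind Ifi200 products, 2 were higher by 2-fold or more in the library labelled Ahi1-/- while 2 were lower. These numbers are near the 16.0% higher and 10.3% lower among all genes with the minimum count. Their median log2 ratio was -0.42. Mdm2, the inhibitor of p53, had 3437 counts in the library labelled Ahi1-/- and 1261 in WT, and the AP-1 gene Jun 2878 and 1299. The cell cycle factor E2f1 had 942 counts in the library labelled Ahi1-/- and 1962 in WT, and Nfkb1 2502 and 5191.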
